A study of Mus musculus with 2 samples.

Results

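The miR-17-92 cluster, the miR-106b-25 cluster and Mir92b hold 10 miRNA genes, chosen by gene name from the 2202 genes in the deposited count files. The miR-17-92 cluster (Mir17, Mir18, Mir19a, Mir20a, Mir19b-1 and Mir92-1) lies on chromosome 14, the miR-106b-25 cluster (Mir106b, Mir93 and Mir25) on chromosome 5, and Mir92b stands alone on chromosome 3. The study sequenced RNA with a size limit of 30 nt from the hippocampus of 18 to 20 month old mice, all female and of the B6CASTF1/J hybrid of the B6 and CAST strains. It held 2 libraries, numbered in the labels as biological replicates 1 and 2, and both belong to 1 group of 1 age and sex, with no treatment or genetic change named. The labels call the tissue a layer of hippocampus without naming the layer, and the 2 tissue records carry different animal numbers but the same donor record, so part of the spread between libraries may be technical. Levels are sense-strand counts scaled to a library total of 1000000 counts in miRNA genes, written here as CPM. A read spans a whole mature miRNA, so a count does not grow with hairpin length and levels of different genes were compared without a length correction.

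MicroRNAs are cut from hairpin precursors and guide silencing of messenger RNAs that match their seed, bases 2 to 8 of the mature strand. The miR-17-92 cluster, also known as oncomiR-1, is transcribed as 1 precursor and is driven by Myc and E2F factors in dividing cells. The miR-106b-25 cluster, a paralogue of it, sits in Mcm7, a gene for a subunit of the replicative DNA helicase. Their miRNAs restrain cell cycle inhibitors and the pro-apoptotic gene Bim, and both clusters have been studied in neural stem cells, those of the adult hippocampus included. miR-92b has been studied in progenitors of the developing cortex, where it limits Tbr2. In bulk tissue, a change in the number of cells of a type and a change in RNA per cell cannot be told apart.

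The mature sequences of the 10 hairpins, with the seed in capitals, show how the loci share a few seeds. All 10 genes had a RefSeq entry (build GRCm38.p6), and their RefSeq hairpins were identical in sequence and position to the annotation of the files. The first set carries the seed AAAGUGC of the miR-17 family and comes from both clusters.
miR-17-5p (Mir17): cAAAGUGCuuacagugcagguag
miR-20a-5p (Mir20a): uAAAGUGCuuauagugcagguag
miR-106b-5p (Mir106b): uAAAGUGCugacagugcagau
miR-93-5p (Mir93): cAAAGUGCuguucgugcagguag
The next set carries the seed AUUGCAC and comes from all 3 loci.
miR-92a-3p (Mir92-1): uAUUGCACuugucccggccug
miR-25-3p (Mir25): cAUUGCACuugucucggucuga
miR-92b-3p (Mir92b): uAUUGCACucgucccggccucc
The remaining strands come from miR-17-92 alone, miR-18a with the seed AAGGUGC and the miR-19 pair with GUGCAAA.
miR-18a-5p (Mir18): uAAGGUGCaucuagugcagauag
miR-19a-3p (Mir19a): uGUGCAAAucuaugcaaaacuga
miR-19b-3p (Mir19b-1): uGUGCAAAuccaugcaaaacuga

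Single bases separate several of these strands. Counting from 1 at the 5′ end, miR-19a-3p and miR-19b-3p differ by U11C alone. miR-92a-3p and miR-92b-3p differ over their first 21 bases by U10C and G21C. miR-17-5p and miR-20a-5p differ by C1U and C12U, outside the seed. Of the strands shown, 2 recur in another annotated hairpin, miR-19b-3p in Mir19b-2 and miR-92a-3p in Mir92-2, both on chromosome X. Mir19b-1 and Mir19b-2 share an unbroken stretch of 25 bases, and Mir92-1 and Mir92-2 one of 22 bases. The other 8 hairpins share at most 17 bases with any other hairpin, whereas 1084 of all 2202 hairpins (49.2%) share 20 or more. Reads that fit several places are a separate total in the files and are in none of the levels, so Mir19b-1 and Mir92-1 can read too low. An exact read of the whole miR-19b-3p or miR-92a-3p strand fits 2 hairpins and is in no level. A count belongs to a hairpin and sums both arms.

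Mir92b was by far the most abundant of the 10 genes by placed reads. It lies on the minus strand at chromosome 3, 89227116 to 89227198 (mm10), in no other annotated gene. Its nearest neighbour Mtx1, which encodes a mitochondrial membrane protein, starts 28 nt downstream on the same strand. Mir92b held 20234 counts in replicate 1, or 8969.6 CPM, and 24780 counts in replicate 2, or 5481 CPM. It ranked 27 and 38 among all genes in those libraries. Its mean of 7225 ± 2467 CPM (SD, n = 2) was 0.723% of all counts. Among placed reads, the other 9 genes together did not reach it in either library. Mir92b took 78.4% of the counts of the 10 genes in replicate 1 and 71.1% in replicate 2. Reads of miR-92a-3p and miR-19b-3p that also fit chromosome X are missing from the counts of the other genes. Neither strand of Mir92b recurs in another annotated hairpin. The Mir92b hairpin is GC-rich (67.5% G and C) and is printed here with its 5′ and 3′ mature strands in capitals, the 3′ strand being the one with the AUUGCAC seed.
Mir92b hairpin: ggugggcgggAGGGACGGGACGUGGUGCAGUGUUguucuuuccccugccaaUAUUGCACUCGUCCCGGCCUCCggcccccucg

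**Figure D1:**
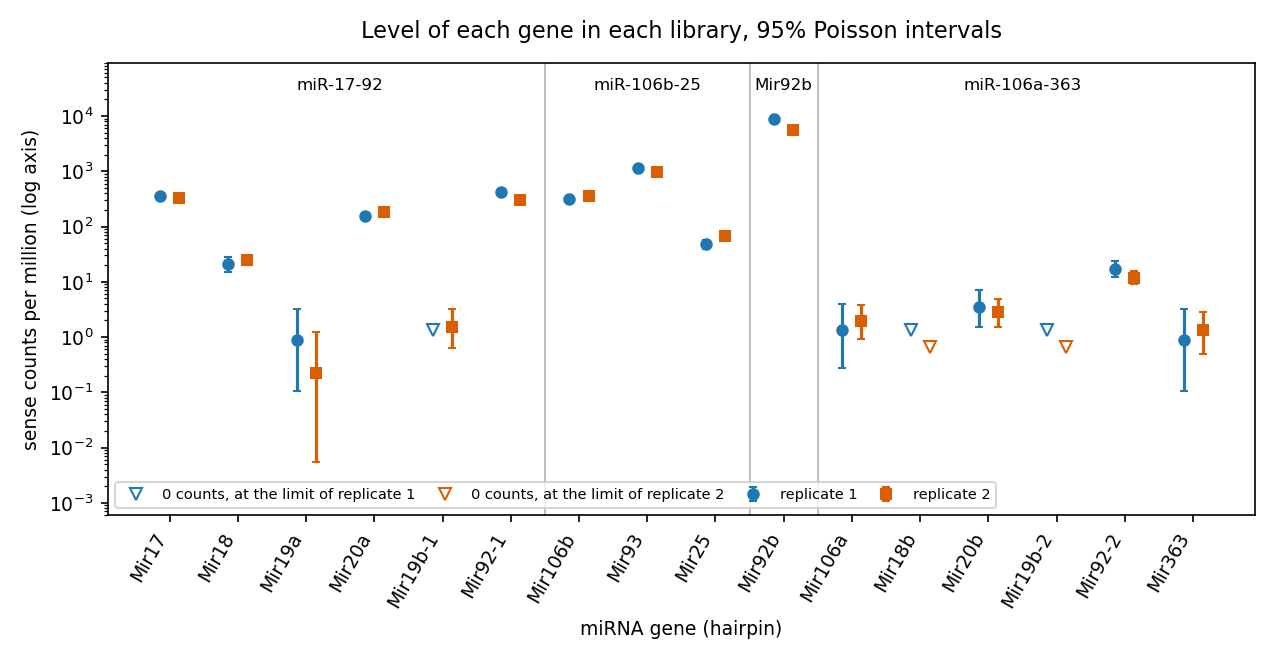
Level in CPM of sense counts (log axis) of each gene in replicate 1 (circles) and replicate 2 (squares), with exact 95% Poisson intervals; open triangles mark libraries with 0 counts, drawn at the limit of 3 counts. Mir92b stands above all others at 8969.6 and 5481 CPM, Mir93 follows, and Mir19a, Mir19b-1 and most miR-106a-363 genes lie near the limit.

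The miR-106b-25 cluster was the next most abundant locus by placed reads, and Mir93 carried most of it. The cluster spans 498 nt of the minus strand, chromosome 5, 138165321 to 138165818. All 3 hairpins are intronic in 2 of the 10 annotated Mcm7 transcripts, and Mir93 and Mir25 also overlap an exon of 1 further transcript. Mir93, of the miR-17 family, held 1155 CPM in replicate 1 and 954 CPM in replicate 2. Mir106b, of the same family, held 311 and 363 CPM. Mir25, the only member of the cluster with the AUUGCAC seed, held 47.9 CPM (exact 95% Poisson interval 39.3 to 57.8) and 66.6 CPM (59.3 to 74.5). The order Mir93, Mir106b, Mir25 was the same in both libraries, and the ranges of the 3 genes did not overlap. Mir93 exceeded Mir25, which lies in the same Mcm7 introns, 24.1-fold in replicate 1 (95% interval from counting error 19.9 to 29.5) and 14.3-fold in replicate 2 (12.7 to 16.2). In sum the cluster held 1513 and 1384 CPM, a mean of 1449 ± 91.6 CPM (SD, n = 2).

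The 6 genes of miR-17-92 lie within 836 nt and differed widely in level, with Mir17, Mir20a and Mir92-1 high and the others low. The cluster lies on the plus strand, chromosome 14, 115043671 to 115044506, and every hairpin overlaps the exon of the single annotated transcript of its host Mir17hg, a noncoding RNA. Mir17, first in the transcript, held 352 CPM in replicate 1 and 333 CPM in replicate 2. Mir20a, of the same seed family, held 157 and 183 CPM. Mir92-1, last in the transcript, held 423 and 300.4 CPM. In both libraries Mir20a lay below the other 2 of these genes. Mir18, the second hairpin, stood at 20.8 CPM from 47 counts (exact 95% limits 15.3 and 27.7) and at 24.8 CPM from 112 counts (20.4 and 29.8). Mir17 thus exceeded Mir18, the next hairpin of the transcript, 16.9-fold in replicate 1 (12.6 to 23.2) and 13.4-fold in replicate 2 (11.1 to 16.4). In sum the cluster held 954 and 843 CPM, a mean of 899 ± 78.4 CPM (SD, n = 2).

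The miR-19 genes, known as the main oncogenic part of the cluster, were close to absent from the counts. For Mir19a, replicate 1 gave 0.887 CPM from 2 counts (exact 95% limits 0.107 and 3.20), and replicate 2 gave 0.221 CPM from 1 count (0.0056 and 1.23). Mir19b-1 was at 0 in replicate 1, which allows up to 1.33 CPM at a limit of 3 counts (exact 95% upper limit 1.64). In replicate 2 it was at 1.55 CPM from 7 counts (0.622 and 3.19). Both genes therefore lay near the level that a count of 0 allows, and no difference between the libraries was detectable at this depth. The whole strand miR-19b-3p also occurs in Mir19b-2, so exact reads of it are in no level, whatever their number. By contrast, miR-19a-3p occurs in no other annotated hairpin. The longest stretch that the Mir19a hairpin shares with another hairpin is 13 bases. The strand miR-19a-3p differs from miR-19b-3p by U11C alone. How the counting treated reads with a mismatch is not given in the sources used here. Copies elsewhere in the genome were not examined, and loss of Mir19a reads to the multimapping total was not tested.
Mir19a hairpin (mature strand in capitals): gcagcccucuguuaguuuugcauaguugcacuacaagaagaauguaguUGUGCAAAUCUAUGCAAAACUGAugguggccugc

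**Figure D2:**
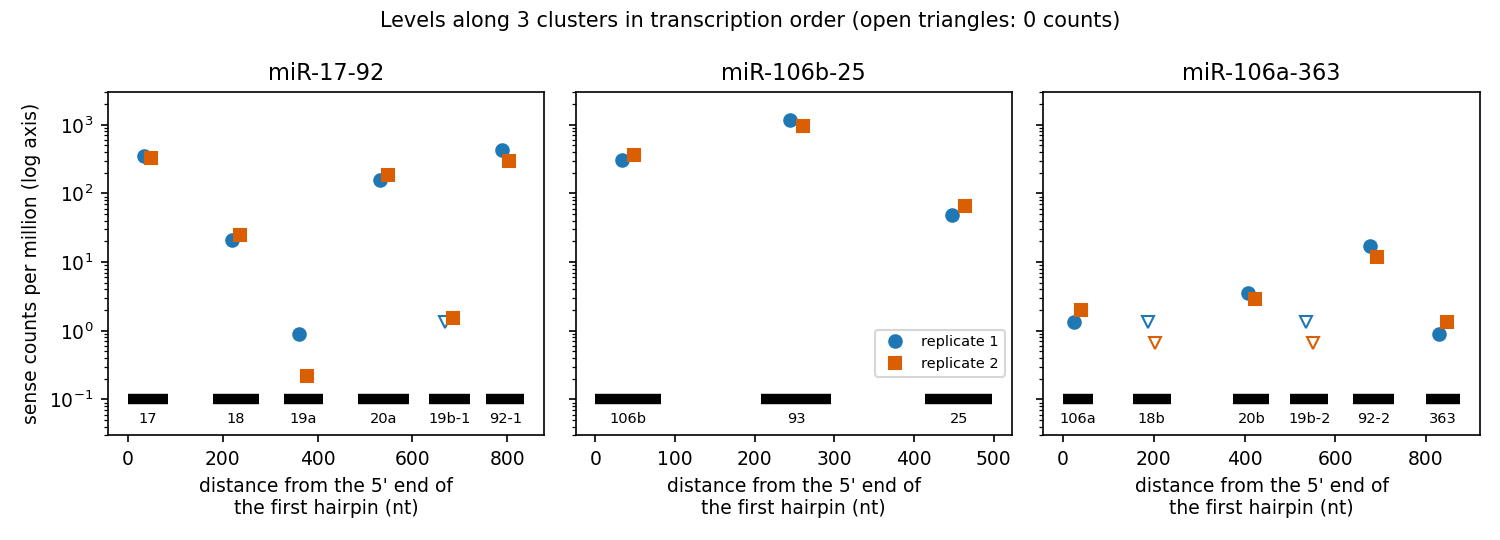
Level in CPM of sense counts (log axis) of each hairpin against its distance in nt from the 5′ end of the first hairpin of its cluster, in transcription order, for miR-17-92, miR-106b-25 and the paralogous miR-106a-363; black bars are the hairpins, circles replicate 1, squares replicate 2 and open triangles 0 counts. In miR-17-92, Mir17, Mir20a and Mir92-1 stand at 157 to 423 CPM with Mir18, Mir19a and Mir19b-1 far below them between these positions.

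Within the clusters, the division of counts among the genes held in outline and shifted in detail between the libraries. Mir92-1 took 44.3% of the miR-17-92 counts in replicate 1 (95% Wilson interval 42.2 to 46.4) and 35.6% in replicate 2 (34.1 to 37.2). Mir17 took 36.9% (34.9 to 39.0) and 39.5% (37.9 to 41.0), so by placed reads the leading gene of the cluster changed from Mir92-1 to Mir17. Mir20a took 16.5% (14.99 to 18.1) and 21.7% (20.5 to 23.1). Mir18, Mir19a and Mir19b-1 together made up the small rest, Mir18 at 2.18% and 2.94%. In miR-106b-25, Mir93 took 76.3% (74.8 to 77.7) and 68.9% (67.8 to 70.1), while Mir106b took 20.5% (19.2 to 21.9) and 26.3% (25.2 to 27.4). Mir25 took 3.16% (2.63 to 3.81) and 4.81% (4.31 to 5.37). These intervals cover counting error only, and the shares leave out reads of miR-92a-3p and miR-19b-3p that also fit chromosome X. The intervals of Mir92-1, Mir20a, Mir93, Mir106b and Mir25 did not overlap between the libraries.

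**Figure D3:**
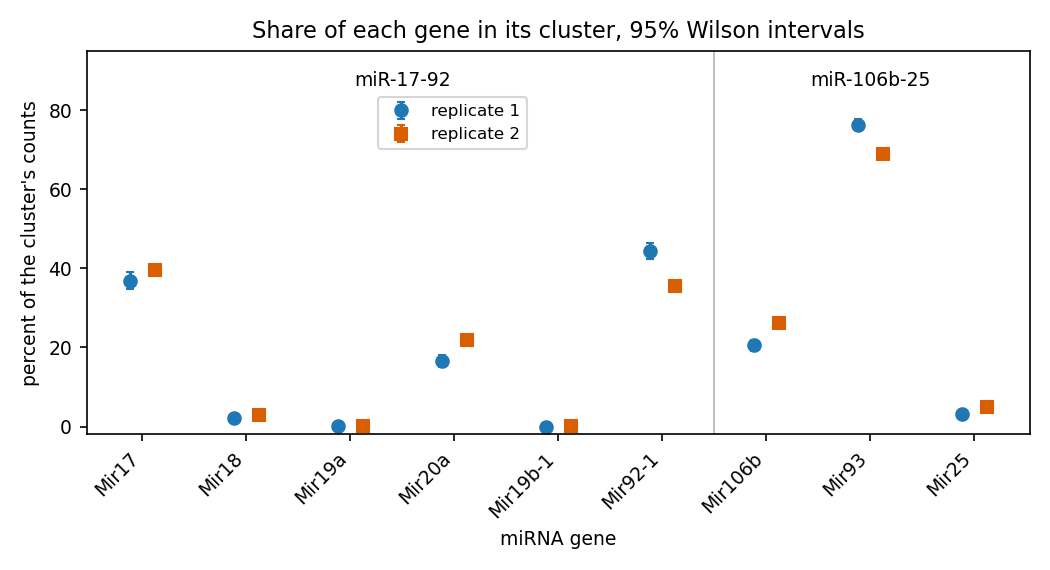
Percent of the counts of its cluster taken by each gene of miR-17-92 and miR-106b-25, in replicate 1 (circles) and replicate 2 (squares), with 95% Wilson intervals. Mir92-1 and Mir93 took smaller shares in replicate 2, at 35.6% and 68.9%, while Mir20a and Mir106b took larger ones, at 21.7% and 26.3%.

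The order of levels over the 10 genes was the same in both libraries apart from a few neighbours. By mean CPM the order was Mir92b, Mir93, Mir92-1, Mir17, Mir106b, Mir20a, Mir25, Mir18, Mir19b-1 and Mir19a. Mir92-1 (362 ± 86.6 CPM), Mir17 (342 ± 13.5 CPM) and Mir106b (337 ± 37.2 CPM; SD, n = 2) did not differ beyond their spread, and their order reversed between the libraries. In replicate 1 the order was Mir92-1, Mir17, Mir106b, and in replicate 2 it was Mir106b, Mir17, Mir92-1. Mir19a and Mir19b-1 overlapped as well. All other neighbours in the order had ranges that did not overlap. Per summed cluster, miR-106b-25 exceeded miR-17-92 1.59-fold in replicate 1 (95% interval from counting error 1.503 to 1.68) and 1.64-fold in replicate 2 (1.58 to 1.71), a ratio whose intervals overlap between the libraries. This holds for placed reads only, since reads of miR-92a-3p and miR-19b-3p that also fit chromosome X are missing from the miR-17-92 sum, while no mature strand of miR-106b-25 recurs in another annotated hairpin.

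Grouped by seed rather than by locus, the AUUGCAC strands dominated the placed reads and the GUGCAAA strands were nearly missing from them. This grouping assigns all counts of a hairpin to its seed-bearing strand, since the arms were not told apart. Exact reads of the whole miR-92a-3p or miR-19b-3p strand also fit chromosome X and are in neither sum, so both groups can read too low. The counts of Mir92-1 and Mir19b-1 are of reads that fit only these hairpins, so their assignment to the seed-bearing strand is least certain. Mir92b, Mir92-1 and Mir25 together held 9440 CPM in replicate 1 and 5848 CPM in replicate 2, or 82.5% and 75.9% of the counts of the 10 genes. The AAAGUGC group, Mir93, Mir17, Mir106b and Mir20a, held 1975 and 1834 CPM, or 17.3% and 23.8%. The AAGGUGC strand of Mir18 came from that gene alone, at 20.8 and 24.8 CPM. The GUGCAAA group, Mir19a and Mir19b-1, held 2 counts in replicate 1 and 8 in replicate 2.

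Between the libraries the 8 genes tested differed modestly, with 0 of the 8 called. A gene was tested at a mean of 1 CPM or more and called at a Benjamini-Hochberg adjusted p under 0.05 in a two-sided exact binomial test on the reads of the 2 libraries with a difference of 2-fold or more. Mir19a and Mir19b-1 were too low to be tested. Of all 495 genes tested, 87 were called (17.6%), so 0 of 8 is to be read against that share. The test compares 2 libraries of 1 group, not conditions. Mir92b was the tested member that differed most, 1.64-fold lower in replicate 2 (1.61 to 1.67, counting error only), a log2 ratio of -0.71. At a threshold of 1.5-fold it was the only one of the 8 called, and lower in replicate 2, where 28.5% of all tested genes were called and 20.4% were called lower. Mir92-1 was 1.41-fold lower in replicate 2 (1.29 to 1.53) and Mir93 1.21-fold lower (1.15 to 1.27). Mir25 was 1.39-fold higher (1.11 to 1.75), Mir106b 1.17-fold higher (1.07 to 1.28) and Mir20a 1.17-fold higher (1.03 to 1.32). For Mir17 the fold of replicate 2 over replicate 1 was 0.946 (0.867 to 1.03), and for Mir18 it was 1.19 (0.839 to 1.71), so neither difference exceeded counting error. The adjusted p of the exact binomial test was 4.88e-15 for Mir92-1, 9.01e-14 for Mir93, 0.00118 for Mir106b, 0.00721 for Mir25, 0.0319 for Mir20a, 0.306 for Mir17 and 0.471 for Mir18.

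Differences of this size were common among all genes of these libraries. The exact binomial test gave an adjusted p under 0.05 for 6 of the 8 genes, and likewise for 265 of all 495 (53.5%). The median absolute log2 ratio was 0.26 over the 8 genes and 0.51 over all 495, and 63.2% of the 495 had a smaller absolute ratio than Mir92b. The median signed log2 ratio was 0.07 against -0.19, with 4 of the 8 genes higher and 4 lower in replicate 2, while 191 of all 495 were higher and 304 lower. With edgeR's exactTest and a dispersion estimated by treating both libraries as replicates, 0 of the 8 genes were called or had an unadjusted p under 0.05, and 3 of all 495 were called (0.606%). Scaling with TMM or DESeq2 size factors raised every log2 ratio by 0.12 and 0.19. This turned the sign for Mir17, to 0.041 and 0.11. The log2 ratio of the summed miR-17-92 cluster, -0.18, became -0.057 with TMM and 0.013 with DESeq2 size factors, and that of miR-106b-25, -0.13, became -0.0077 and 0.062. The calls over all genes went from 19 higher and 68 lower to 26 and 51 (15.6% called) with TMM and 27 and 48 (15.2%) with DESeq2 size factors, with 0 of the 8 genes among them. None of the 10 members was called without the filter on low counts either (11.2% of 734 genes called), and none of the 8 at a mean of 10 CPM (17.1% of 310) or with the unstranded column (16.5% of 478). The summed level of 13 miRNAs listed as markers of choroid plexus and ependyma was 3561 CPM in replicate 1 and 1622 CPM in replicate 2. Of these, 10 were at 1 CPM or more in both libraries and Mir449b was at 0. The highest by mean CPM, Mir34c, held 1597 and 366 CPM. Mir200b (78.5 and 85.4 CPM) and Mir449a (55.4 and 63.9 CPM) were higher in replicate 2, and the other detected ones were lower. The part of these markers in the differences of Mir92b, Mir92-1 and Mir93 was not tested.

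**Figure D4:**
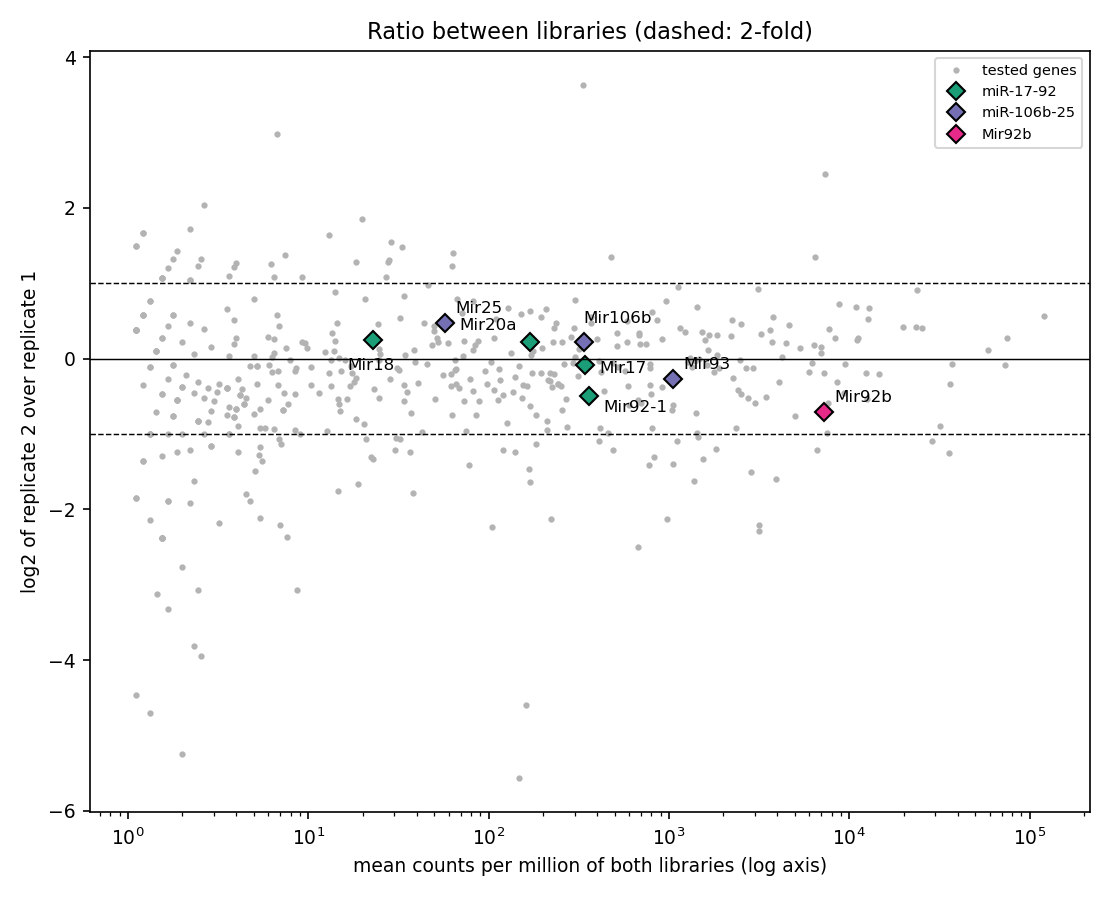
Log2 of replicate 2 over replicate 1 against the mean CPM of both libraries (log axis) for the 495 tested genes (grey) and the 8 tested members (diamonds, by locus), with 2-fold marked by dashed lines. All 8 members lie inside the 2-fold lines, from -0.71 for Mir92b to 0.47 for Mir25.

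The third paralogous cluster, miR-106a-363 on chromosome X (52741693 to 52742567, minus strand), was far lower than miR-17-92. Its 6 genes summed to 23.1 CPM in replicate 1, from 52 counts (exact 95% limits 17.2 and 30.2), and to 18.1 CPM in replicate 2, from 82 counts (14.4 and 22.5). The miR-17-92 cluster held 41.4-fold more counts in replicate 1 (31.4 to 55.6) and 46.5-fold more in replicate 2 (37.4 to 58.6). Mir92-2 made up most of the chromosome X cluster, with 39 and 54 counts, or 17.3 and 11.9 CPM. Mir92-1, whose 3′ strand is identical to that of Mir92-2, exceeded it 24.5-fold (17.8 to 34.6) and 25.1-fold (19.2 to 33.7). Reads that fit both hairpins are in neither count, so this ratio describes only reads that could be placed. Mir20b held 8 and 13 counts, Mir106a 3 and 9, and Mir363 2 and 6. Mir18b and Mir19b-2 held 0 counts in both libraries. At a limit of 3 counts this allows up to 1.33 CPM in replicate 1 and 0.664 CPM in replicate 2 (exact 95% upper limits 1.64 and 0.816).

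Pairs of paralogues with unlike strands also differed widely, by ratios that were not alike. Mir106a encodes a strand that differs from miR-17-5p by U10A alone, shown here to mark how close the pair is.
miR-17-5p (Mir17): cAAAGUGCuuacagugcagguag
miR-106a-5p (Mir106a): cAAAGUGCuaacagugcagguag
Mir17 held 794 and 1505 counts against 3 and 9 of Mir106a, a ratio of 265 in replicate 1 (90.2 to 1286) and 167 in replicate 2 (87.9 to 366). Mir20a exceeded Mir20b 44.4-fold (22.3 to 104) and 63.8-fold (37.1 to 120.3). Other genes with related seeds were low. Mir32, which carries the AUUGCAC seed and lies on chromosome 4, held 53 and 61 counts, or 23.5 and 13.5 CPM. Of 9 genes of the miR-302/367 and miR-290 clusters of pluripotent cells that were matched by name, 4 held any count, with at most 6 in a library.

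With the 10 genes themselves left out of the search, the genes nearest in level to the leader of each locus were found by distance in log2(CPM + 1) over the 2 libraries. Nearest to Mir92b were Mir770 (9210 and 6093 CPM; distance 0.16), Mir221 (distance 0.20) and Mir433 (distance 0.37). Nearest to Mir93 were Mir484 (1272 and 831 CPM; distance 0.24), Mir204 (distance 0.30) and Mir1249 (distance 0.30). Outside the 10 genes, those nearest to Mir92-1 were Mir700 (341 and 289 CPM; distance 0.31), Mir212 (distance 0.37) and Mir326 (distance 0.39). With 2 libraries this likeness is one of level only.

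Replicate 1 held 2255838 sense counts in miRNA genes and replicate 2 held 4521208, and 36.2% and 47.9% of all reads were multimapping. All 10 genes had 0 antisense counts in both libraries, and for all 10 the unstranded count equalled the sense count. As a check of the tissue, neuronal miRNAs (10 genes, 7 of them at 1 CPM or more in both libraries) summed to 65578 and 50361 CPM. Mir132 was the highest of them, at 38949 and 18329 CPM. Those that missed 1 CPM in a library were Mir124a-1 (0.887 and 2.88 CPM), Mir124a-2 (1.77 and 0 CPM) and Mir124a-3 (0.443 and 0.885 CPM). Reads that fit more than 1 hairpin are in none of these values, and such loss was not examined for the Mir124a genes. Endothelial and mural miRNAs (3 genes) summed to 29696 and 38353 CPM, and oligodendrocyte ones (2 genes) to 6822 and 5391 CPM. Microglial and leukocyte miRNAs (5 genes) summed to 1718 and 1726 CPM and erythroid ones (3 genes) to 138 and 136 CPM. A list of 9 miRNAs of other organs (Mir122, Mir1a-1, Mir1a-2, Mir133a-1, Mir133a-2, Mir206, Mir208a, Mir216a and Mir217) summed to 32.4 and 71.9 CPM, with the Mir1a and Mir133a genes at 0. Mir375, known from pancreatic islets and other endocrine cells, is outside that list and held 613 and 308 CPM.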

How the data were processed

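Counts per miRNA gene were deposited by the authors as raw counts, 1 file per library, on mm10 with the GENCODE M21 annotation, per the notes deposited beside them. The columns have no header, and their roles (unstranded, sense, antisense) were read from the values. How reads were aligned and counted is not given in the sources used here. The 4 rows that name no gene were kept apart from all library sizes. Of these, replicate 1 held 29.0% unmapped, 36.2% multimapping and 4.68% outside annotated genes, and replicate 2 held 11.2%, 47.9% and 3.72%, of 7481717 and 12159538 reads. Gene names, positions and hosts came from GENCODE M21 (2202 of 2202 matched), and mature and hairpin sequences from RefSeq (GRCm38.p6).

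Sense counts were scaled to CPM on their sum. Intervals are exact Poisson for levels, Wilson for shares and exact binomial for ratios, all at 95%. A count of 0 was taken to allow up to 3 counts, a limit set apart from these intervals. PCR reads are not independent molecules, so intervals and limits cover counting error only. Log2 ratios used a pseudocount of 0.5 counts. With 1 library on each side, edgeR's quasi-likelihood test has no replicates, so an exact conditional binomial test was used, and its code was tested on simulated data with known changes. Genes from a mean of 1 CPM were tested in SciPy 1.17.1, with edgeR 4.0.16 and DESeq2 1.42.0 for alternatives. The named genes were all 10 members, the miR-106a-363 cluster, genes with related seeds and the 3 non-member genes nearest in level to each locus's leader; Mir292a had no match by name. Members and lists were chosen with earlier results of these data known. P-values measure only differences between these 2 libraries.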

Additional observations from a re-analysis of the deposited data

How the results depend on the processing

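The count of 0 called members stayed at 0 with TMM, with DESeq2 size factors, without the filter on low counts, at a mean of 10 CPM, with the unstranded column and with edgeR's exactTest, and rose to 1 (Mir92b) at 1.5-fold. The scalings could not bring a tested member to 2-fold. The largest log2 ratio was -0.71, and TMM and DESeq2 size factors shifted every ratio by 0.12 and 0.19. The dispersion for edgeR's exactTest came from the same 2 libraries that it compares. With DESeq2 size factors the log2 ratio (replicate 2 over replicate 1) turned from -0.18 to 0.013 for the summed miR-17-92 cluster and from -0.13 to 0.062 for miR-106b-25, and for Mir92b it moved from -0.71 to -0.52. With TMM these ratios were -0.057, -0.0077 and -0.59. The ratio of Mir17 turned from -0.08 to 0.041 with TMM and 0.11 with DESeq2 size factors. These shifts follow from the scaling itself, which is 1 factor for all genes. The unstranded column, whose total is smaller, raised miR-17-92 from 899 to 983 CPM and miR-106b-25 from 1449 to 1585 CPM. Scaled to 1000000 of all reads, unmapped and multimapping ones included, miR-17-92, miR-106b-25 and Mir92b stood at 301, 485 and 2371. In single libraries they ranged from 843 to 954, from 1384 to 1513 and from 5481 to 8969.6 CPM. No paired analysis was possible because both libraries belong to 1 group. Ratios between the libraries cannot be recomputed without 1 of them. Depth limits Mir19a, Mir19b-1 and most of miR-106a-363, which lay near the level that a count of 0 allows. For Mir19b-1, Mir19b-2 and Mir92-2, reads that also fit their paralogue are left out as well, which more depth would not change.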

Other observations

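Among the 8 tested members, the ratio between the libraries ran with the GC content of the seed-bearing strand, a pattern chosen after the values were seen. The ratios are those of the hairpin genes, which sum both arms, and which arm carried the counts was not determined. Exact reads of miR-92a-3p also fit Mir92-2, so they are not in the Mir92-1 count that is paired with this strand here. The strands richest in G and C belong to genes with negative ratios: Mir92b (miR-92b-3p 63.6% GC, gene log2 ratio -0.71), Mir92-1 (miR-92a-3p 57.1%, gene -0.49) and Mir93 (miR-93-5p 52.2%, gene -0.28). The strands of lowest GC belong to genes with positive ratios: Mir18 (miR-18a-5p 43.5%, gene 0.24), Mir106b (miR-106b-5p 42.9%, gene 0.23) and Mir20a (miR-20a-5p 39.1%, gene 0.22). Mir17 lay between them (miR-17-5p 47.8%, gene -0.08), and Mir25 went against the order (miR-25-3p 50%, gene 0.47). Across 440 tested genes with a RefSeq entry, Spearman's rho between the mean GC of the annotated arms and the log2 ratio was -0.11. It was -0.14 across the 188 of these genes at a mean of 100 CPM or more. Across all 495 genes it was -0.11 with hairpin GC. These weak values are a description, since the genes share 2 libraries and are not independent. Over 4 bins of hairpin GC, from lowest to highest, the median log2 ratio was -0.047, -0.32, -0.20 and -0.30, with no steady fall. Over 4 bins of arm GC (440 genes) it was -0.027, -0.20, -0.14 and -0.33. That is lowest at the highest GC, but again without a steady fall. By the hairpin's GC the members themselves did not follow the order: Mir25 (63.1%) and Mir106b (57.3%) had positive ratios and Mir92-1 (47.5%) a negative one. The part of GC content in the members' ratios was not tested.

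Genes of 1 seed had ratios of both signs. Of the genes with the AUUGCAC seed, Mir92b, Mir92-1, Mir92-2 and Mir32 had negative log2 ratios (-0.71, -0.49, -0.54 and -0.80), whereas Mir25 (0.47) and Mir363 (0.38) had positive ones. Mir32 was 1.74-fold lower in replicate 2 (1.18 to 2.56, counting error only). Mir92-2 and Mir363 rest on fewer than 100 counts and their differences did not exceed counting error.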
